A study of Mus musculus with 2 samples.

Results

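Fos, Fosb, Jun, Junb, Egr1, Atf3, Ier2, Ier3, Btg2 and Zfp36 were followed as a set of immediate early response genes across the cell types of the postischemic mouse kidney. The 10 genes were chosen by name from the 32285 genes of the deposited matrices, and all 10 had UMIs (unique molecular identifiers, each standing for 1 captured RNA molecule) in both libraries. Immediate early genes are transcribed within minutes of a growth factor, stress or injury signal, from regulators already present in the cell, and their RNAs are short-lived. Their promoters are typically read by serum response factor (SRF) with its ETS partners and by the CREB and ATF proteins, which kinases of the MAPK pathways act on. Fos and Jun proteins pair as the AP-1 transcription factor, and in the kidney this group is known for its early induction after ischemia-reperfusion injury (IRI), as well as for its response to warm enzymatic dissociation of tissue.

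Kidney cells of 2 male C57BL/6 mice aged 9 weeks were profiled by single-cell RNA sequencing with a 10x Genomics 5′ kit. Both mice underwent bilateral renal IRI, which was the common background of both groups, and kidneys were taken 24 h later. Just ahead of reperfusion 1 mouse was given JPI-289, an inhibitor of poly(ADP-ribose) polymerase (PARP), at 100 mg/kg by the intraperitoneal route, and the control mouse was given saline. No uninjured kidney was analysed here, so every value below is a level in postischemic tissue. Each group was 1 mouse and 1 library, so no difference could be tested between the groups. All intervals are 95% intervals of counting error only (exact Poisson for levels, exact binomial for ratios and shares) and hold no spread between mice, surgeries or tissue preparations. Since PCR copies of a molecule share its UMI, these counts are of molecules, but they carry no information on how another mouse would differ.

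The control and JPI-289 libraries held 38328760 and 35548396 UMIs over all barcodes, and 3758 and 5038 cells were kept. Their median depth was 2050 and 1866.5 UMIs. The libraries shared 23 cell barcodes. The cells fell into 27 clusters made without the 10 genes and without the other early genes described below, so the levels of these genes did not define the clusters. Clusters were named from marker lists, scored as the mean log2 level against the median cluster. At least 5 markers of the leading list were detected in each named cluster. In the PT-like clusters holding 947 and 371 JPI-289 cells the leading list was one of injured proximal tubule (PT). Their PT name rested on PT list scores of 0.92 and 0.90, where at least 0.75 was required. The 11 classes with at least 30 cells in each library were compared, namely cells resembling the proximal tubule (PT-like, 1753 control and 1648 JPI-289 cells), thick ascending limb (TAL-like, 277 and 404), distal convoluted and connecting tubule (DCT-like, 258 and 294), collecting duct principal cells (82 and 384), intercalated cells (45 and 63), endothelial cells (EC-like, 500 and 569), podocytes (56 and 61), stroma (156 and 102), macrophages (201 and 307), neutrophils (196 and 647) and red blood cells (76 and 124). Different clusters held most PT-like cells in the 2 libraries, and principal-like cells differed in median depth, at 9235.5 UMIs in control and 1540 in JPI-289.

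The promoters of 6 of the genes are shown here because they held at least 1 of the motifs searched. RefSeq promoters on GRCm38.p6 were matched for 8 of the 10 genes, and Egr1 and Ier2 are named only. The 250 bases before the listed start site were searched on both strands for the CArG box of SRF, for TGACGTCA (the full element of CREB and ATF proteins), for TGACG (its core, which every TGACGTCA also contains), for TGANTCA (the AP-1 element) and for TATAAA. In the 6 stretches below, written 5′ to 3′ on the strand of the gene, capitals mark TGACG or TGACGTCA, TATAAA and the CArG box.
Fos, chr12:85473640-85473889, plus strand: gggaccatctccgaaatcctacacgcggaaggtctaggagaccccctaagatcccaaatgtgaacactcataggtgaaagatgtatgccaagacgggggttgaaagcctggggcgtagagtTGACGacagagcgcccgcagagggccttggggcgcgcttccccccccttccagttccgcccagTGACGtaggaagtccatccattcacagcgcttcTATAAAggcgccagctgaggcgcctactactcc
Fosb, chr7:19310046-19310295, minus strand: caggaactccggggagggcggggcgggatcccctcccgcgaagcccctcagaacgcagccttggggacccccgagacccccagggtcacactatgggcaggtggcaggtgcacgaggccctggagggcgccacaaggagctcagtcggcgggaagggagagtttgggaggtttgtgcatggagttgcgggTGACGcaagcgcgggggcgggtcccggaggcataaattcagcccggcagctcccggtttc
Junb, chr8:84978749-84978998, minus strand: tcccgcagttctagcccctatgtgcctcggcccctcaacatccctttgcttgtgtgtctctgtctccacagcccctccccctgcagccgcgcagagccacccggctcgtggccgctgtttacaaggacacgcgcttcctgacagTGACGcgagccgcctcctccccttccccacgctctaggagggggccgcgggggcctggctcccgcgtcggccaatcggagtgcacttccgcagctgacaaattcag
Atf3, chr1:191183334-191183583, minus strand: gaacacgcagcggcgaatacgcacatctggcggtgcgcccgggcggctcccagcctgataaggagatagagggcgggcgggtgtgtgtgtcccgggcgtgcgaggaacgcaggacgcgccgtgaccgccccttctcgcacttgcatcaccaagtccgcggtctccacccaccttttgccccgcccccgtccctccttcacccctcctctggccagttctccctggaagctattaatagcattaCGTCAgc
Btg2, chr1:134079156-134079405, minus strand: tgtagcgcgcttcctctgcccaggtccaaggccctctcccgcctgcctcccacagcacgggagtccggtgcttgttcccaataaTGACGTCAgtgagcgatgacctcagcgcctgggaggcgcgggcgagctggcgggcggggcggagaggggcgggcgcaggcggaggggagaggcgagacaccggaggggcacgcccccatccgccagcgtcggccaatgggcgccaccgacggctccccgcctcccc
Zfp36, chr7:28379229-28379478, minus strand: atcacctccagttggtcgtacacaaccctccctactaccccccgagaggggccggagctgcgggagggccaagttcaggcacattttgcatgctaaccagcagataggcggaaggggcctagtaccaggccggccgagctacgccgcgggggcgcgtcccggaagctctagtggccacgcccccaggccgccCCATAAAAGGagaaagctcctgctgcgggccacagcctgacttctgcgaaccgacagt
The core TGACG was present in Fos, Fosb, Junb, Atf3 and Btg2, which is 5 of the 8 matched genes, and in 17.8% of the 32851 promoters of the table. Fos held it at 2 places, starting 129 and 66 bases before the start site, and also held TATAAA from base 33 before the start, an element found in 12.4% of all promoters. Btg2 alone held the full TGACGTCA, from 166 bases before its start, against 1.55% of all promoters. Zfp36 alone held a CArG box in this window, from 58 to 49 bases before the start, against 1.47% of all promoters. The AP-1 element TGANTCA, found in 6.75% of all promoters, was in none of the 8, and Jun and Ier3 held none of the 5 motifs. The listed start sites of Fosb, Atf3, Ier3 and Zfp36 lie inside the span that GENCODE gives these genes, so transcripts that start further upstream are also annotated for them. These are matches of letters in a short window, and binding was not measured.

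The summed level of the 10 genes differed widely between cell classes. In control it was highest in neutrophil-like cells at 16164 CPM (UMIs of the genes per 1000000 UMIs of the class, interval 15788 to 16546), followed by macrophage-like cells at 12495, intercalated-like cells at 9092, stroma-like cells at 8250 (8059 to 8444), EC-like cells at 7990 (7865 to 8116), podocyte-like cells at 7559 and principal-like cells at 7539, TAL-like cells at 6353, DCT-like cells at 5166, PT-like cells at 1761 and red blood cell-like cells at 289. Stroma, EC, podocytes and principal cells were neighbours whose intervals overlapped in turn, and the other steps of this order were larger than counting error. In JPI-289 the order was podocyte-like cells at 19744 (18807 to 20715), macrophage-like cells at 10548, neutrophil-like cells at 10157, stroma at 8610, EC at 7302, TAL at 6208, principal-like cells at 5486, DCT at 4296, intercalated-like cells at 3786, PT at 1242 and red blood cells at 1090, where only the last 2 overlapped. PT-like cells, the epithelium that takes most of the ischemic damage, were thus low in both libraries, and the sum over all called cells was 5319 CPM in control and 4836 in JPI-289. Barcodes under 100 UMIs, which hold RNA free in the suspension, had 2914 and 2915 CPM, above the level of PT-like cells in both libraries.

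**Figure D1:**
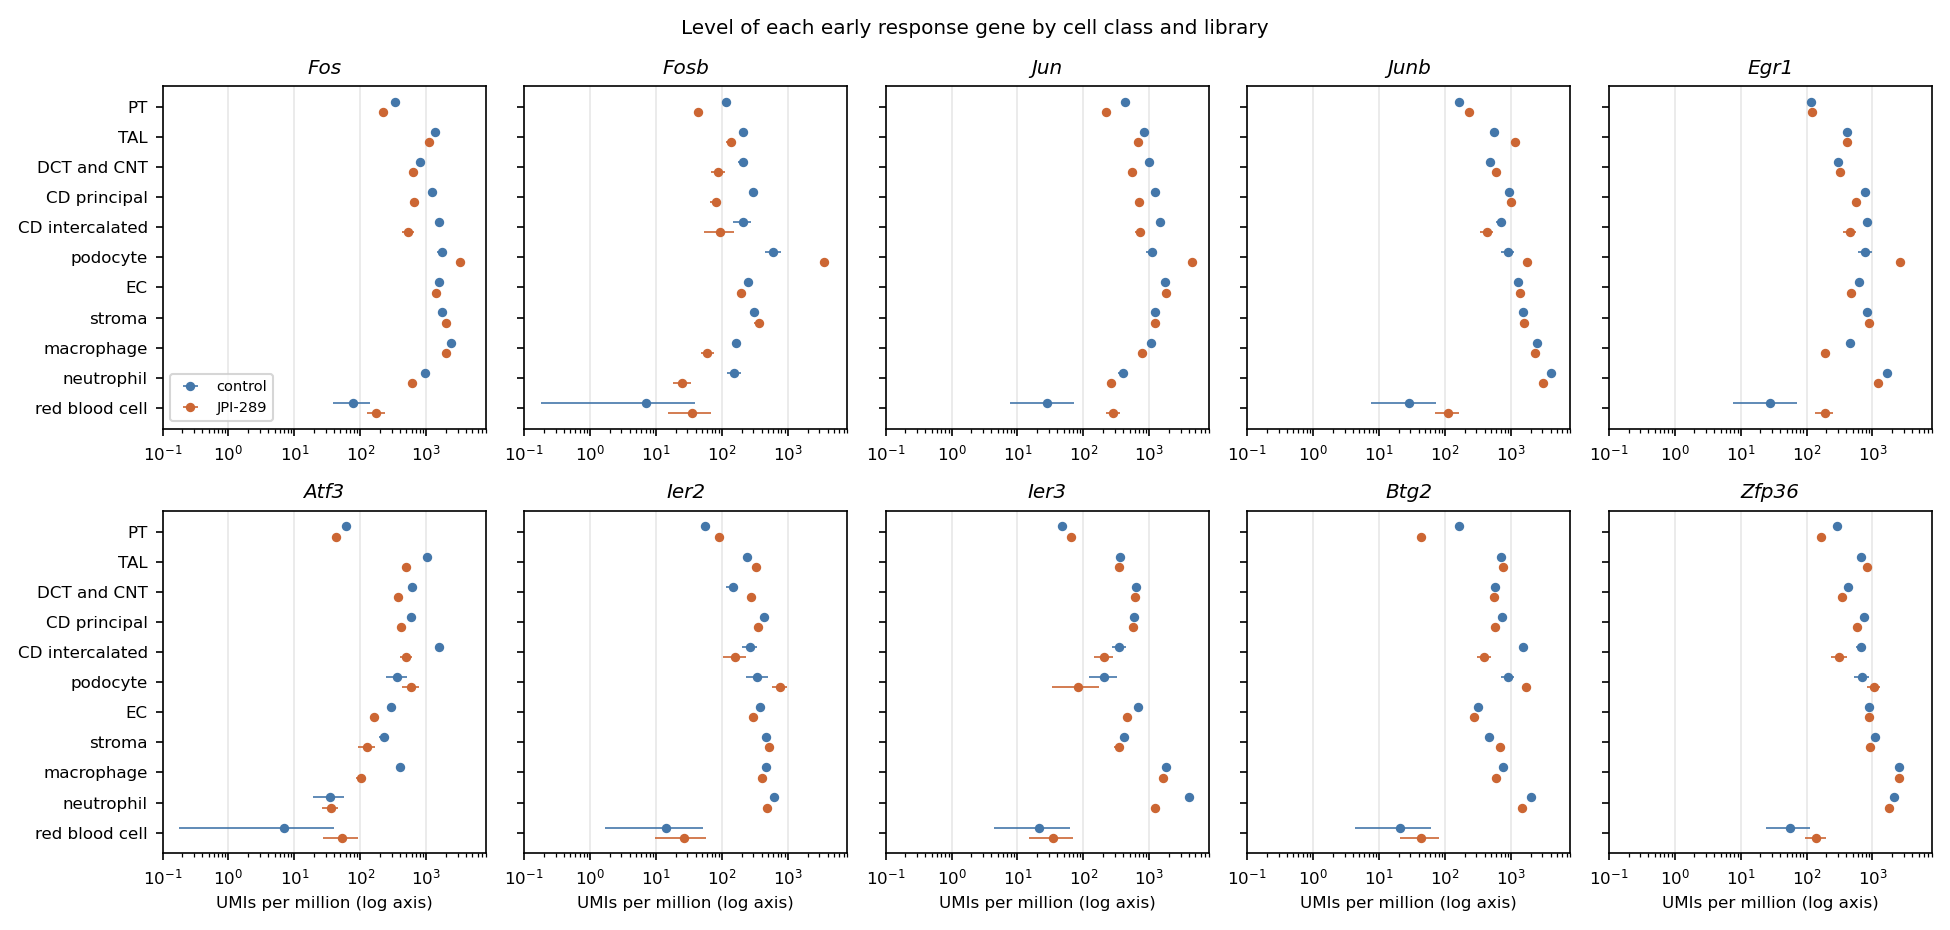
CPM (UMIs per 1000000 UMIs of the class) of each of the 10 genes (log axis) in the 11 cell classes (resembling the named cell types), control in blue and JPI-289 in orange, with exact 95% Poisson intervals of counting error and 1 library per group. Btg2 and Fosb lie lower in JPI-289 than in control in PT-like cells, Atf3 lies lower in TAL-like, intercalated-like and macrophage-like cells, and Fosb, Jun and Egr1 lie higher in podocyte-like cells.

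JPI-289 was compared with control within each class as the log2 ratio of CPM, and a gene with at least 20 UMIs over both libraries was counted when it differed by at least 2-fold. In PT-like cells 2 of the 10 genes were at least 2-fold lower in JPI-289 (Btg2 and Fosb) and 0 were as much higher, against 23.4% of 11294 genes lower and 9.15% higher. The median of the 10 was -0.52 there and that of all genes tested -0.19, and with each cell weighted equally the median of the 10 turned to 0.12. In intercalated-like cells 5 of 10 were at least 2-fold lower (Btg2, Atf3, Fos, Zfp36 and Fosb) and 0 as much higher, against 8.5% and 13.5% of all genes, with a median of -1.06 against 0.12. All 10 lay below 0 in this class, from -1.94 to -0.71, in only 45 and 63 cells, of whose UMIs an estimated 38.5% and 26.4% were free RNA. The 4 control cells with most UMIs of the 10 genes held 50.3% of those UMIs. The 6 such JPI-289 cells held 54.5%, so few cells weigh heavily here. This was not special to the class. In PT-like cells the top 175 control and 164 JPI-289 cells held 73.3% and 61.2%. At the same share of cells, EC-like (69.2% and 71.8%), TAL-like (64.3% and 71.9%), stroma-like (72.0% and 65.2%) and DCT-like cells (65.7% and 58.7%) were also uneven. Principal-like cells were at 44.7% and 62.5%, macrophage-like at 30.6% and 33.9% and neutrophil-like at 26.7% and 29.3%. The intervals do not hold this spread between cells. In neutrophil-like cells Fosb and Ier3 were at least 2-fold lower and 0 as much higher, against 10.6% and 11.3% of all genes, and the median was -0.47 against 0.10, with all 10 below 0. Of these Atf3 was level at -0.0009 (-0.81 to 0.96) and kept this sign in 7 of 13 alternatives. In macrophage-like cells Atf3, Fosb and Egr1 were at least 2-fold lower and 0 as much higher, against 15.5% and 8.92% of all genes, and the median was -0.32 against -0.03, again with all 10 below 0. Here Zfp36 was level at -0.0016 (-0.07 to 0.07) and kept this sign in 6 of 13 alternatives. Within each macrophage-like cluster 8 genes were lower and 2 higher, and the share of all genes was not computed by cluster. In the one led by Fn1, Lyz2 and Arg1 (69 control and 136 JPI-289 cells) Jun was at 0.42 (0.22 to 0.62) and Zfp36 at 0.23 (0.12 to 0.35). In the one led by Cd74, H2-Aa and C1qa (132 and 171 cells) Jun was at -0.86, and the higher genes, Junb and Zfp36, had intervals that held 0.

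The other tubule classes, EC-like cells and stroma-like cells had fewer such genes than intercalated-like cells. In principal-like cells only Fosb was past 2-fold, lower in JPI-289, against 14.4% of all genes lower and 8.23% higher, and 9 of 10 lay below 0 with a median of -0.42 against -0.08. In DCT-like cells only Fosb was past 2-fold, also lower, against 9.85% of all genes lower and 7.47% higher, and the median was -0.18 against -0.01. In TAL-like cells Junb was at least 2-fold higher, against 7.95% of all genes, and Atf3 at least 2-fold lower, against 11.1%, with a median of -0.02 against -0.05. Of the 10 genes 6 lay below 0 and 4 above in TAL-like cells. The call was kept in 10 of 13 alternatives for Junb (0.85 to 1.40) and in 7 of 13 for Atf3 (-1.66 to -0.49). In EC-like cells 0 of 10 were past 2-fold in either direction, against 18.5% lower and 5.26% higher among all genes, and the median was -0.28 against -0.17. In stroma-like cells 0 of 10 were past 2-fold, against 13.9% lower and 11.4% higher, and the median was 0.07 against 0.00.

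Podocyte-like cells went the other way. Fosb, Jun, Egr1 and Ier2 were at least 2-fold higher in JPI-289, against 23.6% of 1337 genes, Ier3 was at least 2-fold lower on 18 and 7 UMIs with an interval that held 0 (-2.82 to 0.01), against 19.4%, and the median was 0.96 against -0.05. The median mitochondrial share of these cells was 8.93% in control and 4.81% in JPI-289, and their median depth 918.5 and 1204 UMIs. The 5 control cells with most UMIs of the 10 genes held 69.6% of those UMIs, so few cells decide the control level. The 6 such JPI-289 cells held 29.6%. With cells limited to at most 20% mitochondrial UMIs the median of the 10 genes was 0.28. At a coarser clustering resolution of 0.5 the median was 0.01. Of 9 alternatives, 8 kept Fosb, Jun and Egr1 past 2-fold and 6 kept Ier2 and Ier3 past it. In red blood cell-like cells only 5 genes reached 20 UMIs and all 5 were at least 2-fold higher, against 19.4% of 520 genes higher and 6.54% lower, but the tenth of JPI-289 cells with most UMIs of the 10 genes held 80.3% of them, so few cells decide these values. Over all called cells 0 of 10 were past 2-fold, against 21.1% lower and 5.68% higher, and the median was -0.10 against -0.22.

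**Figure D2:**
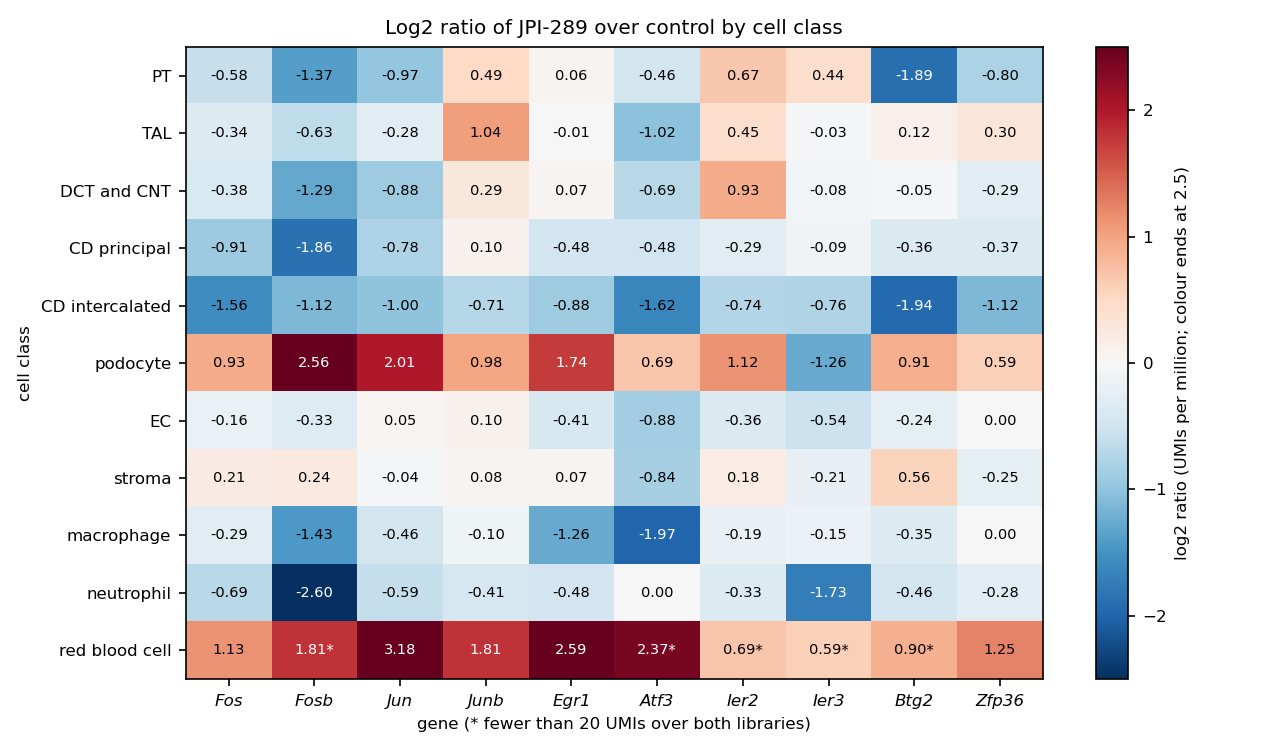
Log2 ratio of JPI-289 over control of each of the 10 genes (columns) in the 11 cell classes (rows), in CPM of the class, with red for higher and blue for lower in JPI-289, 1 library per group and an asterisk under 20 UMIs. Fosb is blue in 8 rows, from -0.33 in EC-like to -2.60 in neutrophil-like cells, while the podocyte and red blood cell rows are mostly red.

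Fosb (chr7:19302696-19310051 of GRCm38, minus strand), an AP-1 subunit that pairs with Jun proteins, was the gene most often past 2-fold. It was lower in JPI-289 in 8 of 11 classes, with an interval below 0 in all 8 and at least 2-fold in 6. In neutrophil-like cells it was at 154 CPM in control (67 UMIs) and 25.2 in JPI-289 (40 UMIs), a log2 ratio of -2.60 (-3.21 to -2.02). In principal-like cells it was at 295 and 80.7 CPM, a log2 ratio of -1.86 (-2.20 to -1.55). Neutrophil-like cells had the lowest Fosb level of the classes in JPI-289, with an interval that overlapped that of red blood cell-like cells at 35.0 CPM. In control PT-like and red blood cell-like cells were below them, and the interval of PT-like cells overlapped theirs.

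In macrophage-like cells Fosb was at 164 and 60.4 CPM (log2 ratio -1.43, -1.82 to -1.06). In PT-like cells it was at 114 and 44.0 CPM (-1.37, -1.56 to -1.18). In DCT-like cells it was at 212 and 86.7 CPM (-1.29, -1.73 to -0.86). Intercalated-like cells, with 42 and 16 UMIs, gave 206 and 93.3 CPM (-1.12, -2.07 to -0.28). The call was lost in 1 of 11 alternatives in intercalated-like cells (-0.72), in 2 of 12 in DCT-like cells (to -0.69) and in 2 of 15 in PT-like cells (to -0.71). TAL-like cells, at 209 and 135 CPM, and EC-like cells, at 245 and 195, were lower by less than 2-fold. Stroma-like cells, at 309 and 366 CPM, had an interval that held 0 (0.24, -0.06 to 0.54). Podocyte-like cells had the highest Fosb in both libraries, at 598 CPM in control (52 UMIs) and 3567 in JPI-289 (301 UMIs), a log2 ratio of 2.56 (2.15 to 3.03) that was 0.63 at resolution 0.5. Red blood cell-like cells had 1 and 8 UMIs. In control most neighbours in the order from stroma to PT overlapped, and the podocyte-like cells stood above them.

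Fos (chr12:85473890-85477273, plus strand), the founding AP-1 partner of Jun, was lower in JPI-289 in 8 of 11 classes. In control it was highest in macrophage-like cells at 2391 CPM, followed by stroma at 1704, podocytes at 1703, EC at 1558, intercalated at 1551, TAL at 1372 and principal cells at 1228, whose neighbours overlapped, then neutrophils at 972 and DCT at 812, PT at 330.0 and red blood cells at 77.6. In JPI-289 it was at 3247 in podocytes, 1971 in stroma, 1960 in macrophages, 1392 in EC, 1082 in TAL, 655 in principal, 622 in DCT, 605 in neutrophil, 525 in intercalated, 221 in PT and 175 in red blood cell-like cells. Macrophage-like cells, the highest class in control, were thus below podocyte-like cells and level with stroma-like cells in JPI-289. The largest difference was in intercalated-like cells (316 and 90 UMIs), with a log2 ratio of -1.56 (-1.92 to -1.22). In principal-like cells the log2 ratio was -0.91 (-1.03 to -0.78), in neutrophil-like cells -0.69 (-0.85 to -0.52) and in PT-like cells -0.58 (-0.67 to -0.49). Podocyte-like cells were higher, at 0.93 (0.64 to 1.23), a sign kept in 8 of 9 alternatives (-0.11 to 1.91).

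Jun (chr4:95049034-95052222, minus strand), which overlaps the antisense gene Junos, was lower in 8 of 11 classes and past 2-fold in none of those 8. In control it was highest in EC-like cells at 1734 CPM, then in intercalated cells at 1448, stroma at 1235, principal cells at 1203, podocytes at 1082, macrophages at 1055 and DCT at 994, which overlapped in turn, TAL at 816, PT at 426, neutrophils at 393 and red blood cells at 28.2. In JPI-289 EC-like cells were at 1792, podocytes were at 4373, stroma at 1200.5, macrophages at 767, intercalated at 723, principal at 702, TAL at 670.1, DCT at 539, red blood cell-like at 285, neutrophil-like at 262 and PT-like cells at 218. PT-like cells were thus the lowest class in JPI-289. Their log2 ratio was -0.97 (-1.05 to -0.88, 3430 and 1599 UMIs), that of intercalated-like cells -0.997 (-1.32 to -0.69), just inside 2-fold, and that of DCT-like cells -0.88 (-1.06 to -0.71). In EC-like and stroma-like cells the ratios of 0.05 (-0.02 to 0.12) and -0.04 (-0.20 to 0.11) were within counting error of 0. The EC value pools unlike clusters. Jun was at 0.54 (0.33 to 0.74) in the cluster led by Hspa1b and Hspa1a and at -0.05 (-0.15 to 0.04) in that led by Igfbp3. Podocyte-like cells were at 2.01 (1.69 to 2.36), which turned to -0.11 at resolution 0.5.

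Junb (chr8:84974484-84978718, minus strand), an AP-1 subunit that can restrain Jun, overlaps Prdx2 on the other strand and was the gene of the set most often higher in JPI-289, in 8 of 11 classes. In TAL-like cells it was at 550.0 CPM in control (492 UMIs) and 1135 in JPI-289 (1390 UMIs), a log2 ratio of 1.04 (0.90 to 1.20). In PT-like cells it was at 165 and 232 CPM (0.49, 0.39 to 0.60), and in DCT-like cells at 478 and 586 (0.29, 0.08 to 0.50). Along the nephron Junb was thus higher in 3 classes in which Fosb was lower. The classes with most Junb were lower instead, with neutrophil-like cells at 4108 and 3083 CPM (-0.41, -0.49 to -0.34) and macrophage-like cells at 2471 and 2308 (-0.10, -0.17 to -0.03). Intercalated-like cells were at 707 and 432 CPM (-0.71, -1.14 to -0.30). Principal-like cells at 938 and 1008, EC-like cells at 1298 and 1394 and stroma-like cells at 1519 and 1601 differed by at most 0.10 on the log2 scale. Podocyte-like cells were at 897 and 1778 CPM and red blood cell-like cells at 28.2 and 109. The sign turned under 1 alternative each in principal-like, DCT-like, EC-like and stroma-like cells.

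Atf3 (chr1:191170296-191218039, minus strand), a repressor of the ATF family and a target of the integrated stress response, was lower in JPI-289 in 9 of 11 classes and at least 2-fold in 3. In control it was highest in the distal nephron, with 1536 CPM in intercalated-like, 1015 in TAL-like, 599.96 in DCT-like and 578 in principal-like cells. Macrophages at 397, podocytes at 357, EC at 291 and stroma at 226 followed. PT-like cells at 59.8 and neutrophil-like cells at 34.5 were far lower. In JPI-289 podocyte-like cells ranked first at 581 CPM, with an interval that overlapped that of TAL-like cells. The same 4 classes of the distal nephron had 496, 499.5, 371 and 415 CPM there, and neighbours in their order overlapped. The 4 classes thus spanned a narrower range in JPI-289, although the intervals of TAL-like and DCT-like cells did not overlap. The log2 ratio was -1.62 (-1.99 to -1.28) in intercalated-like, -1.02 (-1.17 to -0.87) in TAL-like, -0.69 (-0.92 to -0.47) in DCT-like and -0.48 (-0.65 to -0.31) in principal-like cells. The TAL value was under 2-fold in 6 of 13 alternatives.

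The largest difference in Atf3 was in macrophage-like cells, at 397 CPM in control (475 UMIs) and 101 in JPI-289 (140 UMIs), a log2 ratio of -1.97 (-2.26 to -1.70). It held in both macrophage-like clusters, at -2.19 in the one led by Cd74, H2-Aa and C1qa and -1.16 in the one led by Fn1, Lyz2 and Arg1. EC-like cells were at 291 and 158 CPM (-0.88, -1.09 to -0.67) and stroma-like cells at 226 and 125 (-0.84, -1.32 to -0.40). PT-like cells were at 59.8 and 43.4 (-0.46, -0.67 to -0.26), and podocyte-like cells at 357 and 581 (0.69, 0.03 to 1.40). The podocyte value kept its sign in 7 of 9 alternatives (-0.80 to 1.16). Neutrophil-like cells, with 15 and 56 UMIs, had an interval that held 0 (0.00, -0.81 to 0.96). Red blood cell-like cells had 1 and 12 UMIs.

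Egr1, a zinc finger transcription factor and classical SRF target, was lower in 6 classes and higher in 5. In control it was highest in neutrophil-like cells at 1669 CPM, then in stroma at 835, intercalated at 829, principal at 779.8, podocytes at 771 and EC at 620.1, which overlapped in turn, macrophages at 453, TAL at 414, DCT at 302, PT at 117 and red blood cells at 28.2. In JPI-289 podocyte-like cells were at 2595, neutrophils at 1195, stroma at 876, principal at 558, EC at 467, intercalated at 449, TAL at 412, DCT at 318, macrophages at 189, red blood cells at 188 and PT at 122. Macrophage-like cells were thus among the 3 lowest classes in JPI-289, with 542 and 263 UMIs and a log2 ratio of -1.26 (-1.48 to -1.04). In 3 tubule classes the interval held 0, with 0.06 (-0.07 to 0.20) in PT-like, -0.01 (-0.20 to 0.19) in TAL-like and 0.07 (-0.20 to 0.35) in DCT-like cells. The macrophage value was past 2-fold in 12 of 13 alternatives (-1.55 to -0.97). Podocyte-like cells were at 1.74 (1.35 to 2.17), and at 0.52 at resolution 0.5, which is under 2-fold.

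Ier2 (chr8:84661331-84662852, minus strand), a small nuclear early response protein, had 5 classes lower and 6 higher and was past 2-fold only in podocyte-like cells (345 and 758 CPM, log2 ratio 1.12, 0.49 to 1.81), a call kept in 6 of 9 alternatives (0.07 to 2.23). It was higher in 3 tubule classes, with DCT-like cells at 145 and 278 CPM (0.93, 0.58 to 1.30), PT-like cells at 56.3 and 89.7 (0.67, 0.50 to 0.85) and TAL-like cells at 238 and 325 (0.45, 0.20 to 0.70). In neutrophil-like cells, the highest class in control, it was at 609 and 484 CPM (-0.33, -0.54 to -0.12). Ier2 and Junb thus were higher together in PT-like, TAL-like and DCT-like cells. The remaining classes were at 465 and 409 CPM in macrophages, 462 and 523 in stroma, 429 and 351 in principal, 383 and 298 in EC, 265 and 158 in intercalated and 14.1 and 26.3 in red blood cell-like cells.

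Ier3 (chr17:35821684-35822923, plus strand), an NF-kappaB target that acts on survival signals, was a gene of myeloid cells. In control it was at 4028 CPM in neutrophil-like and 1806 in macrophage-like cells, against at most 667 in any other class. In JPI-289 neutrophil-like cells were at 1216 (1752 and 1929 UMIs in 196 and 647 cells), a log2 ratio of -1.73 (-1.82 to -1.63), while macrophage-like cells were at 1630.1 (-0.15, -0.23 to -0.06) and so became the highest class. In the one neutrophil-like cluster with cells of both libraries all 10 genes were lower in JPI-289, from -2.60 to -0.04. The last value was that of Atf3, with an interval that held 0. The share of all genes was not computed for this cluster. In EC-like cells Ier3 was at 667 and 458 CPM (-0.54, -0.67 to -0.41). PT-like cells, the lowest nephron class, were at 47.2 and 63.8 (0.44, 0.24 to 0.64). TAL-like cells at 354 and 347, DCT-like cells at 634 and 601 and principal-like cells at 594 and 558 had log2 intervals that held 0. Stroma-like cells were at 407 and 351, intercalated-like cells at 348 and 204, podocyte-like cells at 207 and 83.0 (18 and 7 UMIs) and red blood cell-like cells had 3 and 8 UMIs.

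Btg2 (chr1:134075170-134079120, minus strand), an antiproliferative gene and p53 target, was lower in 7 of 11 classes, with its largest differences in 2 epithelial classes. In PT-like cells it was at 162 CPM in control (1302 UMIs) and 43.7 in JPI-289 (321 UMIs), a log2 ratio of -1.89 (-2.07 to -1.71). In intercalated-like cells it was at 1526 and 397 (311 and 68 UMIs), a ratio of -1.94 (-2.34 to -1.56). Both stayed past 2-fold under every alternative tried, from -2.52 to -1.20 in PT-like and from -2.34 to -1.35 in intercalated-like cells. TAL-like cells at 709 and 771 CPM (0.12, -0.03 to 0.27) and DCT-like cells at 566 and 549 (-0.05, -0.25 to 0.16) did not share this. Principal-like cells were lower by less than 2-fold, at 741 and 577 (-0.36, -0.51 to -0.21), a sign kept in 13 of 13 alternatives. Neutrophil-like cells, the highest class in control, were at 2044 and 1482 (-0.46, -0.58 to -0.35), macrophages at 769 and 603 and EC at 320.0 and 271. Stroma-like cells at 459 and 678 (0.56, 0.33 to 0.79) and podocyte-like cells at 909 and 1718 (0.91, 0.51 to 1.33) were higher, and red blood cell-like cells had 3 and 10 UMIs. The podocyte value kept its sign in 8 of 9 alternatives (-0.05 to 1.58).

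Zfp36 (chr7:28376784-28380253, minus strand), also called tristetraprolin, binds AU-rich elements in inflammatory and early response RNAs and speeds their decay. It overlaps Gm44710 on the other strand. Its levels in macrophage-like cells were 2525 and 2522 CPM (3024 and 3506 UMIs), a log2 ratio of 0.00 (-0.07 to 0.07), and in EC-like cells 875 and 877, also 0.00 (-0.10 to 0.10). Clusters within the EC class differed, with Zfp36 at 0.98 (0.61 to 1.37) in that led by Hspa1b and Hspa1a and at -0.01 (-0.15 to 0.13) in that led by Igfbp3. Neutrophil-like cells were at 2152 and 1769 CPM (-0.28, -0.39 to -0.17). The epithelial classes differed in direction, with PT-like cells at 285 and 164 (-0.80, -0.90 to -0.70), intercalated-like cells at 677 and 309 (-1.12, -1.62 to -0.66, past 2-fold in 10 of 11 alternatives), principal-like cells at 754 and 583 and DCT-like cells at 423 and 347 lower, and TAL-like cells at 676 and 832 higher (0.30, 0.15 to 0.45). Stroma-like cells were at 1092 and 918, podocyte-like cells at 690.3 and 1043 and red blood cell-like cells at 56.4 and 140.1 CPM. The podocyte log2 ratio kept its sign in 8 of 9 alternatives (-0.09 to 1.63).

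PT-like cells carried these genes unevenly, and the clusters that made up the class were almost wholly of 1 library each. These clusters also differed in their score for the injured PT list (Havcr1, Krt20, Vcam1, Sox9, Dcdc2a and Adamts1). In the order used below, control clusters scored -0.28, -0.33, 0.82 and 1.18, and JPI-289 clusters 1.08, 1.13 and 1.67. The PT ratios thus compare cells of largely unlike injury score, and the part of this in the ratios was not tested. In control the summed level was 687 CPM in the cluster of 801 cells led by Keg1, Npl and Acnat2, 1715 in that of 600 cells led by G6pc, Cyp4a14 and Slc4a4, 1673 in that of 159 cells led by Acy3, Slc22a6 and Nat8, and 5145 in that of 180 cells led by Slc5a12, Slc13a1 and the nuclear RNA Gm26917. In JPI-289 it was 1174 in the cluster of 947 cells led by Srxn1, Plin2 and Gsta1, 1577 in that of 371 cells led by the fibrinogen genes Fgb, Fgg and Fga, and 984 in that of 315 cells led by Inmt, Kap and Cyp2e1. The control clusters thus spanned both the lowest and the highest sum, and the JPI-289 clusters lay between them. Btg2 was at 48.8, 145, 242 and 370.2 CPM in the control clusters and at 31.5, 49.8 and 47.1 in the JPI-289 clusters, so the largest control cluster lay within the JPI-289 range and the other 3 above it. Junb was at 84.4, 168, 150.04 and 405 in control and at 247, 251 and 205 in JPI-289, so only the nuclear RNA cluster of control was above the JPI-289 clusters.

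Cells rich in nuclear RNA were named PT-like in control and mostly not in JPI-289, where 251 such cells (63 in control) sat in a cluster led by Gm26917, Neat1 and Snhg11 that stayed unnamed. Without the control cluster of nuclear RNA the PT median was -0.11, with Btg2 at -1.70, Fosb at -1.004, Jun at -0.76, Zfp36 at -0.50, Fos at -0.23, Atf3 at 0.00 and Egr1 at 0.50. With the unnamed cluster counted as PT-like the median was -0.25, with Btg2 at -1.73, Jun at -0.91, Zfp36 at -0.70, Fosb at -0.71 and Atf3 at -0.07. Weighting each cell equally gave a median of 0.12, with Btg2 at -1.20 and Fosb at -1.25. Btg2 was therefore lower in PT-like cells of JPI-289 in each of these settings, while the median of the set was not on the same side of 0 in all of them.

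**Figure D3:**
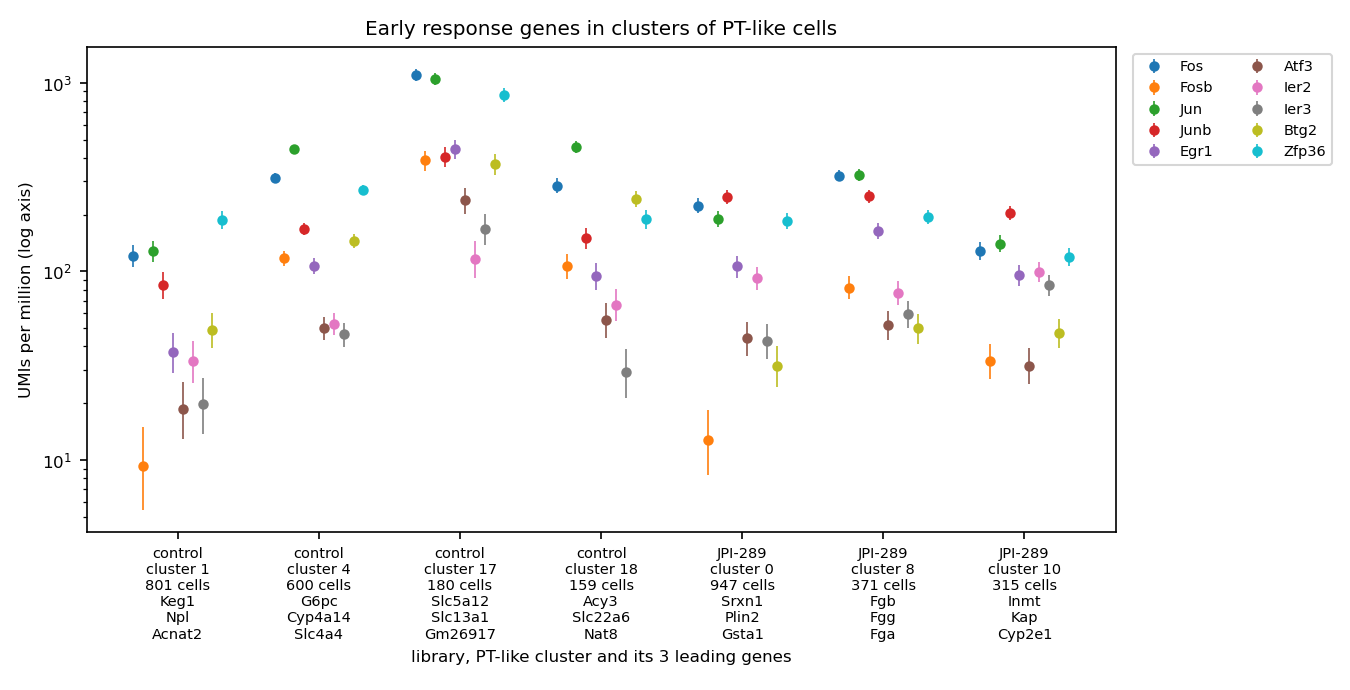
CPM (log axis) of the 10 genes in each PT-like cluster with at least 30 cells of a library, with exact 95% Poisson intervals of counting error, the 4 clusters of the control library on the left and the 3 of the JPI-289 library on the right. Btg2 is at or under 49.8 in all 3 JPI-289 clusters, and the control cluster led by Slc5a12, Slc13a1 and Gm26917 has the highest value of every gene.

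EC-like cells held clusters that went in opposite directions, which the class as a whole did not show. The share and median of all genes were not computed within clusters. The counts by cluster below therefore cannot be told apart from a shift of all genes in a cluster. In the cluster led by the heat shock genes Hspa1b and Hspa1a (243 control and 284 JPI-289 cells) the summed level was 3359 CPM in control and 5159 in JPI-289, a log2 ratio of 0.62 (0.51 to 0.72), and 8 of 10 genes were higher. Of those 8, Fosb, Ier2 and Btg2 had intervals that held 0. Egr1 was at 160.3 and 486 CPM there (1.59, 1.17 to 2.05) and Junb at 442 and 1019 (1.20, 0.94 to 1.48). The cells of this cluster were shallow, at a median of 846 UMIs. Of its 10 leading genes 0 were in the EC marker list used for naming, but all 10 markers of that list were detected. Esm1 was among the leading genes of this cluster and of the one led by Igfbp3. Barcodes under 100 UMIs had Egr1 at 333 and 436 CPM and Junb at 365 and 483, also higher in JPI-289. The part of free RNA in this cluster was not tested. The cluster led by Igfbp3, Ctla2a and Esm1 had a median of 3895 UMIs. In the cluster led by Igfbp3, Ctla2a and Esm1 (72 and 283 cells) the sum was 10355 and 7874, a log2 ratio of -0.40 (-0.44 to -0.35), and all 10 were lower, with intervals for Jun and Zfp36 that held 0. Egr1 was at 937 and 463 CPM in this cluster (-1.02, -1.18 to -0.85) and Atf3 at 424 and 147 (-1.53, -1.80 to -1.26). A further cluster led by Plvap, with 185 control and 2 JPI-289 cells, was at 8228 CPM in control. The summed 11 heat shock genes, which can respond to handling, had log2 ratios of 0.50 in the cluster led by Hspa1b and Hspa1a and -0.23 in that led by Igfbp3. The part of handling in the early gene values was not tested.

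**Figure D4:**
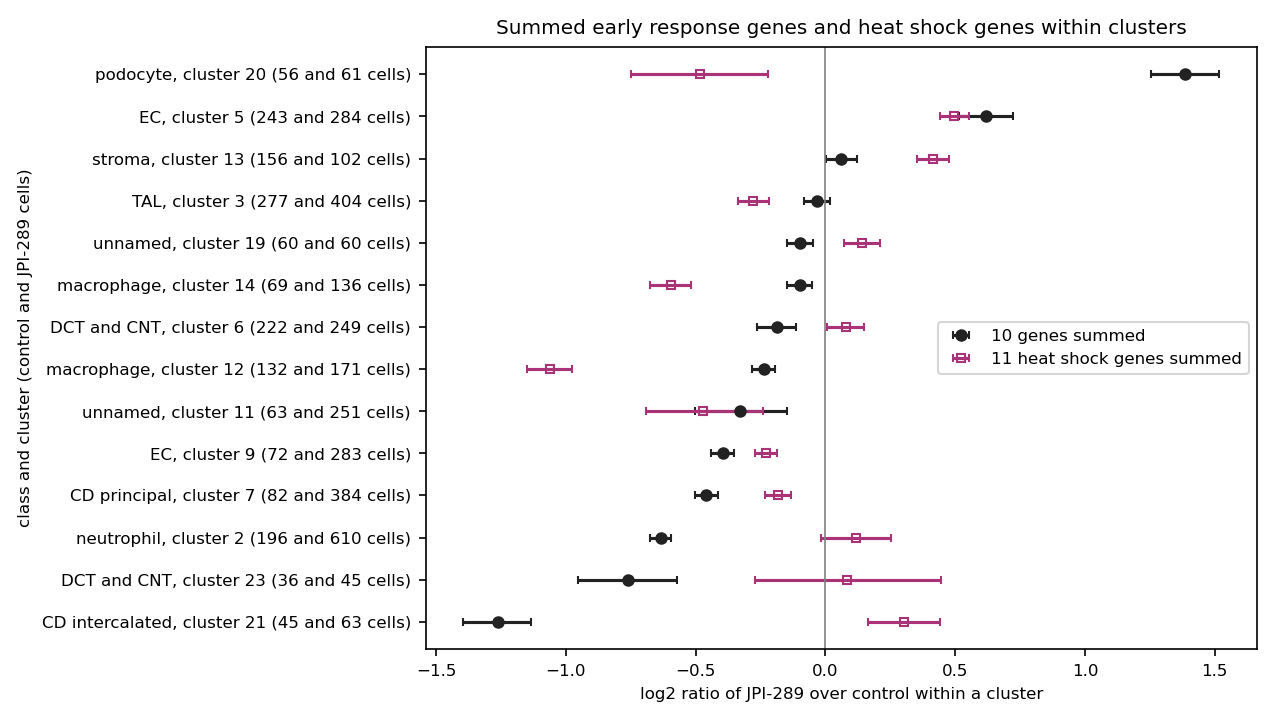
Log2 ratio of JPI-289 over control of the 10 genes summed (black circles) and of 11 heat shock genes summed (purple squares) within each cluster that had at least 30 cells of both libraries (red blood cells left out), with exact binomial 95% intervals of counting error. The podocyte-like cluster is highest for the early genes at 1.38, and the intercalated-like cluster lowest at -1.26.

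Single cells showed how the genes occurred together. With every cell thinned to 1000 UMIs and shallower cells left out, a UMI of at least 3 of the 10 genes was found in 96.6% of control (171 of 177) and 83.5% of JPI-289 neutrophil-like cells (481 of 576), and in 84.0% (137 of 163) and 76.2% (208 of 273) of macrophage-like cells. For epithelia the shares were 60.3% and 69.0% in principal-like, 53.3% and 39.1% in intercalated-like, 44.5% and 35.6% in TAL-like, 44.1% and 44.2% in DCT-like and 15.1% and 12.6% in PT-like cells. Only the neutrophil-like and podocyte-like shares had intervals that did not overlap between the libraries. For podocyte-like cells they were 30.8% (8 of 26, 14.3% to 51.8%) and 83.3% (30 of 36, 67.2% to 93.6%). EC-like cells were at 41.8% and 34.9%, and stroma-like cells at 36.7% and 48.5%. Red blood cells, which have no nucleus and so should lack new transcripts, were at 1.79% (1 of 56) and 2.13% (2 of 94). Without thinning the shares were 28.5% and 30.9% in PT-like, 28.6% and 77.0% in podocyte-like and 98.0% and 89.3% in neutrophil-like cells.

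**Figure D5:**
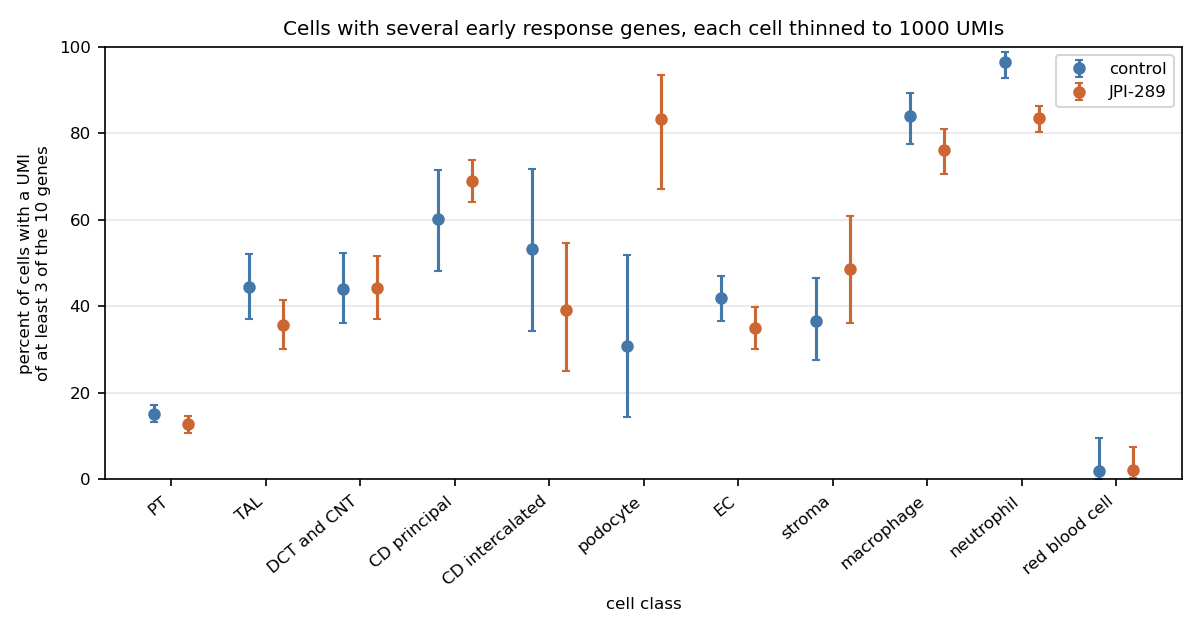
Percent of cells with a UMI of at least 3 of the 10 genes, by cell class, after thinning each cell to 1000 UMIs, control in blue and JPI-289 in orange, with exact binomial 95% intervals. Neutrophil-like cells are at 96.6% and 83.5%, podocyte-like cells at 30.8% and 83.3%, and red blood cell-like cells, as background, at 1.79% and 2.13%.

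In PT-like cells single genes were seen in few cells at this depth. Btg2 was found in 8.66% of control (114 of 1316) and 3.07% of JPI-289 cells (35 of 1140), and Jun in 21.5% and 15.4%. Junb was found in 11.7% and 19.7%, with intervals that did not overlap. In red blood cell-like cells, at median depths of 1519.5 and 1539 UMIs against 2347 and 1857.5 in PT-like cells before thinning, Btg2 was found in 0 of 56 (which allows up to 6.38% by the exact interval) and 4 of 94 cells (4.26%), and Fosb in 0 of 56 and 3 of 94 (3.19%). The JPI-289 shares of Btg2 and of Fosb (3.07%) in PT-like cells were thus at or below the shares in red blood cell-like cells. Free RNA, estimated from marker genes of other classes, made up 12.7% and 19.1% of UMIs in red blood cell-like cells but 7.80% and 5.22% in PT-like cells, and with it subtracted Btg2 was at -2.19 and Fosb at -1.47 in PT-like cells. In DCT-like cells the estimate was 15.1% in control and 56.7% in JPI-289, and the DCT median with free RNA subtracted was 0.03.

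Of the wider early response, 53 other genes were followed as 4 lists. In PT-like cells 45 of them had at least 20 UMIs, of which 12 were at least 2-fold higher and 6 lower in JPI-289, against 9.15% and 23.4% of all genes, and their median was 0.33 against -0.19 for all genes. In this setting that is opposite in side to the median of the 10 genes, which was -0.52 but 0.12 with each cell weighted equally. The median of the other early genes is given here for the main setting only. Fosl1, an AP-1 subunit that Fos and Jun proteins induce later, had 15 and 389 UMIs (1.86 and 52.9 CPM, log2 ratio 4.78, 4.09 to 5.68). Cebpd, a transcription factor of the acute phase, was at 21.0 and 105 CPM (2.31, 2.08 to 2.57), and Atf4, the effector of the integrated stress response, at 45.8 and 192 (2.07, 1.90 to 2.24). The lowest were Ccn1, a matricellular target of YAP and SRF (316 and 59.1 CPM, -2.42, -2.57 to -2.27), Errfi1, a feedback inhibitor of the EGF receptor (796 and 255, -1.64), and Hbegf, a ligand of that receptor (116 and 41.9, -1.47). Of the lists, that of AP-1 and ATF partners had 4 of 7 higher and 0 lower, and that of feedback regulators of kinases and RNA 2 higher and 2 lower of 14, with a median of -0.50.

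In EC-like cells 2 of 46 of these genes were at least 2-fold higher and 3 lower, against 5.26% and 18.5% of all genes, with a median of -0.09 against -0.17. Mafk (37.6 and 95.6 CPM, 1.34), Btg3 (99.2 and 214, 1.11) and Ccn2 (329 and 611, 0.89) were highest. Ccn1 (1720 and 432 CPM, -1.99), the phosphatase gene Dusp5 (91.6 and 32.0, -1.51) and Crem (25.4 and 9.91, -1.33) were lowest. Ccn1 was thus lower in JPI-289 than in control in both PT-like and EC-like cells, and over all called cells it was at 435 and 141 CPM (-1.63, -1.69 to -1.56). There Egr3 (1.91 and 7.33 CPM, 1.92), Btg3 (55.1 and 142, 1.36) and Atf4 (79.8 and 177, 1.15) were highest, and Areg (8.91 and 1.34 CPM, -2.71) and Egr2 (8.85 and 5.04, -0.81) joined Ccn1 as lowest, with 4 of 53 at least 2-fold higher and 2 lower, against 5.68% and 21.1% of all genes, and a median of 0.39 against -0.22. Stroma-like cells had 16 of 46 at least 2-fold higher and 3 lower, against 11.4% and 13.9% of all genes, with a median of 0.77 against 0.00, while the 10 genes themselves had a median of 0.07 there.

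A further list of 18 genes held SRF, CREB, their partners and kinases of the MAPK pathways. Of these 18, 1 was at least 2-fold higher and 1 lower in PT-like cells, against 9.15% and 23.4% of all genes. Their median was -0.03 against -0.19. The values of this list are also for the main setting only, in which control PT-like cells include the nuclear RNA cluster of 180 cells. The MAP kinase kinase kinase gene Map3k1 was at 34.1 and 3.27 CPM (275 and 24 UMIs, -3.36, -4.05 to -2.78), and Creb1 (-0.57) and Mapk8 (-0.49) followed. Elk4, an ETS partner of SRF, was at 19.0 and 39.3 CPM (1.05, 0.76 to 1.34), Srf at 9.80 and 18.6 (0.92, 0.52 to 1.35) and Map2k4 at 41.8 and 77.7 (0.89). In EC-like cells 0 were at least 2-fold higher and 3 lower, against 5.26% and 18.5% of all genes, with a median of -0.19 against -0.17. Elk3 was at 266 and 61.8 CPM (-2.10, -2.42 to -1.80), Map3k1 at 20.9 and 5.83 (-1.79) and Mapk3 at 165 and 92.1 (-0.84). Ep300 (0.91), Crebbp (0.80) and Mapk14 (0.73) were highest in EC-like cells. Over all called cells Crebbp (1.12), Map2k4 (0.98) and Elk4 (0.97) were highest and Elk3 (50.2 and 17.7 CPM), Map3k1 (-1.09) and Mapk3 (-0.50) lowest.

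The 11 heat shock genes, which like the early genes can be induced by handling, were set beside them as a further list. Whether handling or the injury set their levels here was not tested, and their values too are for the main setting only. In PT-like cells 4 were at least 2-fold higher and 2 lower, against 9.15% and 23.4% of all genes, with a median of 0.16 against -0.19, led by Hspb1 (53.0 and 255 CPM, 2.27), Dnajb1 (26.6 and 68.1, 1.36) and Hsp90ab1 (902 and 2265, 1.33) and with Hspa1b (13.9 and 5.99, -1.20), Hspa1a (11.9 and 5.85, -1.02) and Hspe1 (734 and 501, -0.55) lowest. In EC-like cells 0 were past 2-fold in either direction, against 5.26% of all genes higher and 18.5% lower, and the median was 0.04 against -0.17, with Dnajb1 (0.90), Hspa1b (0.51) and Hsp90ab1 (0.39) highest and Hspd1 (-0.72), Hsph1 (-0.70) and Hspe1 (-0.56) lowest. In macrophage-like cells all 11 were lower, 4 of them at least 2-fold against 15.5% of all genes, with a median of -0.69 against -0.03, beside the lower early genes of that class. In podocyte-like cells all 7 measured were lower, 2 of them at least 2-fold against 19.4% of all genes, with a median of -0.77 against -0.05, beside higher early genes. In intercalated-like cells 7 of 10 measured were higher, 2 of them at least 2-fold against 13.5% of all genes, with a median of 0.37 against 0.12, beside lower early genes. Over all called cells Dnajb1 (0.63), Hsp90aa1 (0.46) and Hsp90ab1 (0.38) were highest and Hsph1 (-0.77), Hspe1 (-0.76) and Hspa1a (-0.52) lowest.

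Across the 22 units of class and library, the genes whose level was most like the sum of the 10, by Pearson's r of log2 (CPM + 10) among 10201 genes, were Lnpep (0.93), Socs3 (0.92), Kmt2e and Ccnl1 (both 0.90), Ccnd3, Sbno2, Jund and Iqgap1 (all 0.90), and Nfkb1 and Tapbp (both 0.89). Jund is an AP-1 subunit and Socs3 a feedback inhibitor of cytokine signalling. Of the 10 genes, Ier2 (0.96) and Junb (0.95) followed the sum most closely, while Fosb (0.67) and Atf3 (0.52) did so least. The sum includes each of these genes, and those with more UMIs weigh more in it, so this order is partly built in. Among pairs of the 10, Junb and Zfp36 were most alike (0.96) and Fosb and Ier3 least (0.11). The units share libraries and depth, and these values describe them without a test.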

How the data were processed

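Single-cell RNA sequencing of 1 saline and 1 JPI-289 kidney was analysed. The deposited UMI counts per gene and barcode were made by the authors with Cell Ranger 5.0.1, per the submitters' processing notes, on mm10, and were not normalized. The strand setting of the counting is not given in the sources used here.

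Barcodes were called as cells by total UMIs and then by a Monte Carlo comparison with empty droplets (ranks 45000 to 90000, 10000 simulations, FDR 0.01, at least 500 UMIs), and cells above 50% mitochondrial UMIs were removed. Counts were scaled to 10000, logged and clustered (2000 variable genes without the early genes, 30 components, 20 neighbours, Leiden resolution 1, no batch correction) with Python 3.11.15, scanpy 1.11.5 and leidenalg 0.10.2. The rule for naming clusters was written with the clusters in view. Doublets were not removed, since the caller marked only 1 of 8796 cells (under 0.5%). How many doublets remained is not known. UMIs were summed per class and library, and log2 ratios had 0.5 UMIs added. The calculation was tested on simulated data. The members and gene lists were chosen with earlier results of these data known. Genes named outside the 10 were the 3 highest and 3 lowest of each list with at least 50 UMIs. Ccn1 and Ccn2 are the current symbols of Cyr61 and Ctgf. Alternatives covered cell calling, filters, clustering, scaling, cell weights and free RNA, and 5 were added after the data were seen.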

Additional observations from a re-analysis of the deposited data

Results flagged for a closer look

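Fosb had opposite signs in cell classes of the same pair of libraries. On the log2 scale JPI-289 differed from control by 2.564 in podocyte-like cells and -2.604 in neutrophil-like cells. Egr1 was likewise at 1.744 in podocyte-like and -1.257 in macrophage-like cells, and its podocyte value was 0.52 at resolution 0.5. With 1 library per group the difference between classes was not tested.

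Barcodes under 100 UMIs, which entered no comparison of cell classes, held the 10 genes at the same summed level in both libraries, 2914 CPM in control and 2915 in JPI-289, with single genes on either side. Junb was at 482.9 CPM of these barcodes in JPI-289 and 365.1 in control, and Egr1 at 436.3 and 333.3, both higher in JPI-289. Atf3 was at 102 CPM in JPI-289 and 199.5 in control (log2 ratio -0.96, -1.58 to -0.39) and Jun at 352 and 451 (-0.36, -0.70 to -0.03), both lower. The intervals of the other 6 genes, Fos among them at 468 and 569 CPM, held 0. These differences were not tested.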

How the results depend on the processing

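Of 110 log2 ratios of a gene in a class, 72 kept their sign under every alternative run and 38 did not. Of the 26 past 2-fold, 23 kept their sign and 10 stayed past 2-fold throughout. The sign turned for Jun in podocyte-like cells at resolution 0.5 (-0.11), for Fos in red blood cell-like cells when only cells under 10% mitochondrial UMIs with at least 1000 UMIs were used (-1.35) or when the 5% of cells with most UMIs of the 10 genes were left out (-0.87), and for Zfp36 there in the latter setting (-0.22). Summed over classes, 16 values were at least 2-fold lower and 10 higher. By class, 6.54% to 23.4% of all genes were as much lower and 5.26% to 23.6% as much higher. The first step of cell calling alone gave 10 lower and 3 higher, in fewer classes. The higher count was 6 with at least 1000 UMIs per cell, 5 at resolution 0.5, 5 with the early genes among the variable genes, 4 with at least 100 UMIs per gene and 1 with the strict cell filter. Shares of all genes were not set beside the counts under the alternatives, so these counts only describe how the calls moved. The podocyte median was 0.28 with at most 20% mitochondrial UMIs, 0.0109 at resolution 0.5 and 2.07 without the top 5% of cells. Equal cell weights gave 0.70 in red blood cell-like and 0.36 in stroma-like cells, free RNA subtraction gave 3.39 in red blood cell-like cells, and centring on all genes gave 0.12 over all cells. The cause was not tested. At resolution 0.5 no separate DCT-like class formed, and with the early genes in the clustering under 30 control cells were podocyte-like, so these gave no value. The PT median ranged from -0.98 to 0.12. No paired analysis was possible because each group was 1 library, and for the same reason no replicate could be left out.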

Other observations

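A cluster of 60 cells in each library, led by Slc14a2, Bst1 and Tert and left without a cell type name, had a summed level of the 10 genes of 13170 CPM in control and 12297 in JPI-289. Lymphocyte-like cells, too few to compare with 6 in control and 98 in JPI-289, had Junb at 3635 and 2682 CPM (50 and 614 UMIs).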
